A study of Mus musculus with 30 samples.

Results

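The 10 genes described here belong to cholesterol efflux and the liver X receptor (LXR) pathway: Nr1h3, Nr1h2, Abca1, Abcg1, Apoe, Apoc1, Apoc2, Mylip, Lpcat3 and Srebf1. They were chosen by name, with earlier results of these data known. Each was found by its Ensembl identifier among the 37991 genes of the deposited count table, and all 10 passed the filter on low counts. Spleen cells were sorted by flow cytometry from 12 female mice, and RNA of 500 cells per library was sequenced. Of these mice, 6 were of the TLR7.1 line, in which Tlr7 is overexpressed (it encodes an endosomal sensor of single-stranded RNA), and 6 were wild-type (WT) B6 mice. TLR7.1 mice were 10.0 to 15.0 weeks old and WT mice 9.4 to 15.7 weeks old. On days 13, 21 and 26 of December, spleens were taken from 2, 2 and 2 TLR7.1 mice and from 2, 1 and 3 WT mice. Each TLR7.1 mouse gave 3 libraries: inflammatory hemophagocytes (iHPC), which take up blood cells, red pulp macrophages (RPM), which clear aged red blood cells, and Ly6C-high monocytes (Mono). Each WT mouse gave 1 library of RPM and 1 of Mono, so that there were 5 groups of 6 libraries and no iHPC from WT mice. Sorted cells were live and CD45.2+, without Siglec-F or Ly6G. The iHPC gate took Ly6C- cells with high CD31, low VCAM, low F4/80 and CD11b. The RPM gate took Ly6C- cells with low CD31, high VCAM, F4/80 and absent or intermediate CD11b. The Mono gate took cells positive for Ly6C, Ccr2 and CD11b.

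LXRs are nuclear receptors that bind oxysterols, which form when cells carry excess cholesterol, and that act on DNA as a pair with a retinoid X receptor. In macrophages, which take in cholesterol with the membranes of the cells they engulf, LXR target genes encode transporters that move cholesterol out of the cell, apolipoproteins that accept it, an enzyme that remodels membrane phospholipids, a ligase that marks the low-density lipoprotein receptor for degradation and a transcription factor of fatty acid synthesis. The classical LXR element in DNA is a direct repeat of a hexamer with 4 bases between the copies.

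Promoter windows of 250 bases before to 50 bases after each annotated start, from RefSeq on GRCm38.p6, covered 8 of the 10 genes with 13 windows, and Abcg1 and Apoc1 had none in that table. The element was searched on both strands as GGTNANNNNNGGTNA, where N is any base. It was in 2 of these 13 windows, 1 of Abca1 and 1 of Srebf1, and in 236 of all 32851 windows, or 0.718%. The stricter form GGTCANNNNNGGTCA was in 0 of the 13 windows and in 0.0761% of all windows. Among 44 windows of 34 further genes of the pathway, 1 held the element, that of the fatty acid synthase gene Fasn. The sequences around the 3 matches are shown because they are the places in these promoters that carry the LXR element's letters. Each is written 5′ to 3′ on the gene's strand with the match in capitals, which reads as the element on the opposite strand. The Abca1 sequence is chr4:53159918-53159992, minus strand, and its match lies at positions -67 to -53 from the start. The Srebf1 sequence is chr11:60210609-60210683, minus strand, with the match at -182 to -168, and the Fasn sequence is chr11:120824728-120824797, minus strand, with the match at -225 to -211.
Abca1: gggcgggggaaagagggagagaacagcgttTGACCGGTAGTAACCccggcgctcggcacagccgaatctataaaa
Srebf1: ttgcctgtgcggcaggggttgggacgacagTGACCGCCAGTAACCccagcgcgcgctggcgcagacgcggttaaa
Fasn: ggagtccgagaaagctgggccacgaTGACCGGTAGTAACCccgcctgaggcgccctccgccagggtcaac
The letters match a pattern and do not show that a receptor binds there.

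Library totals ran from 95002 to 1932427 counts, with group medians of 1112665 in iHPC, 820242 in TLR7.1 RPM, 544757 in WT RPM, 1656511.5 in TLR7.1 Mono and 1584430 in WT Mono, and 3 libraries held under 300000. Summed levels of 8 RPM markers ran from 1956 to 2853 CPM (counts after scaling each library by TMM) in iHPC, from 6154 to 12890 in TLR7.1 RPM, from 8438 to 15810 in WT RPM and from 840 to 1347 in Mono of both genotypes. Tlr7 ran from 497 to 1531 CPM in the 18 TLR7.1 libraries, against 107 to 384 CPM in the 12 WT libraries, so no library went against its genotype label. Summed levels of 6 monocyte markers were 3743 to 5254 CPM in Mono libraries and at most 158.1 CPM in all others, and Vcan was at 0 in iHPC. Of 3 marginal zone macrophage markers, Cd209b and Siglec1 were at 0 in iHPC and Cd209b in TLR7.1 RPM. Their sum was 0 to 14.1 CPM in iHPC, 58.9 to 363 in TLR7.1 RPM, 86.2 to 310.4 in WT RPM and 4.19 to 29.3 in Mono. Of 5 basophil and mast cell markers none was at 0 in iHPC. Their sum there ran from 0.925 to 3896 CPM with a median of 2568, against at most 21.4 CPM in every other group. The 8 erythroid markers summed to 960 to 3247 CPM in iHPC, 1842 to 4394 in TLR7.1 RPM, 344 to 5385 in WT RPM and 9.38 to 332.5 in Mono. Summed B cell markers ran from 183 to 544 CPM in iHPC, 258 to 1295 in TLR7.1 RPM, 128.5 to 865 in WT RPM and 55.7 to 287 in Mono. Summed neutrophil markers ran from 68.8 to 1003 CPM in TLR7.1 Mono, against 1.03 to 5.99 CPM in WT Mono, where Ly6g and Camp were at 0. They ran from 6.54 to 933 CPM in iHPC with a median of 164.9, from 4.34 to 275 in TLR7.1 RPM and from 0 to 11.6 in WT RPM. Summed platelet markers were 134 to 212.5 CPM in iHPC and at most 112 CPM in every other group. The part of these other cells in the results below was not tested.

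In iHPC, the LXR alpha gene Nr1h3 and the exporter gene Abcg1 stood far above their Mono level, in the range of RPM, while the exporter gene Abca1 and the apolipoprotein genes Apoe and Apoc1 lay far under their RPM level. Against TLR7.1 RPM of the same spleens, 4 of the 10 genes were lower in iHPC (Abca1, Apoe, Apoc1 and Mylip) and 1 was higher (Apoc2). Of all 11030 genes tested, 27.1% were called there, 13.5% lower and 13.6% higher. Against TLR7.1 Mono, 2 were higher in iHPC (Nr1h3 and Abcg1) and 4 were lower (Nr1h2, Apoe, Apoc1 and Apoc2), beside 38.7% of all genes, 19.3% higher and 19.4% lower. TLR7.1 RPM against TLR7.1 Mono gave 6 higher and 2 lower genes, beside 46.6% of all genes, 23.9% higher and 22.6% lower. WT RPM against WT Mono gave 7 higher and 2 lower genes, beside 46.2%, 23.7% higher and 22.5% lower. The median log2 fold change over the 10 genes was -0.45, -0.29, 1.84 and 1.92 in these 4 comparisons, and over all genes tested it lay within 0.05 of 0 in each. Calls are at an adjusted p under 0.05 in edgeR's quasi-likelihood test with Benjamini-Hochberg adjustment over all genes, and each value below is a normalised CPM. Groups that share libraries enter several of these comparisons, so their calls are not independent.

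**Figure D1:**
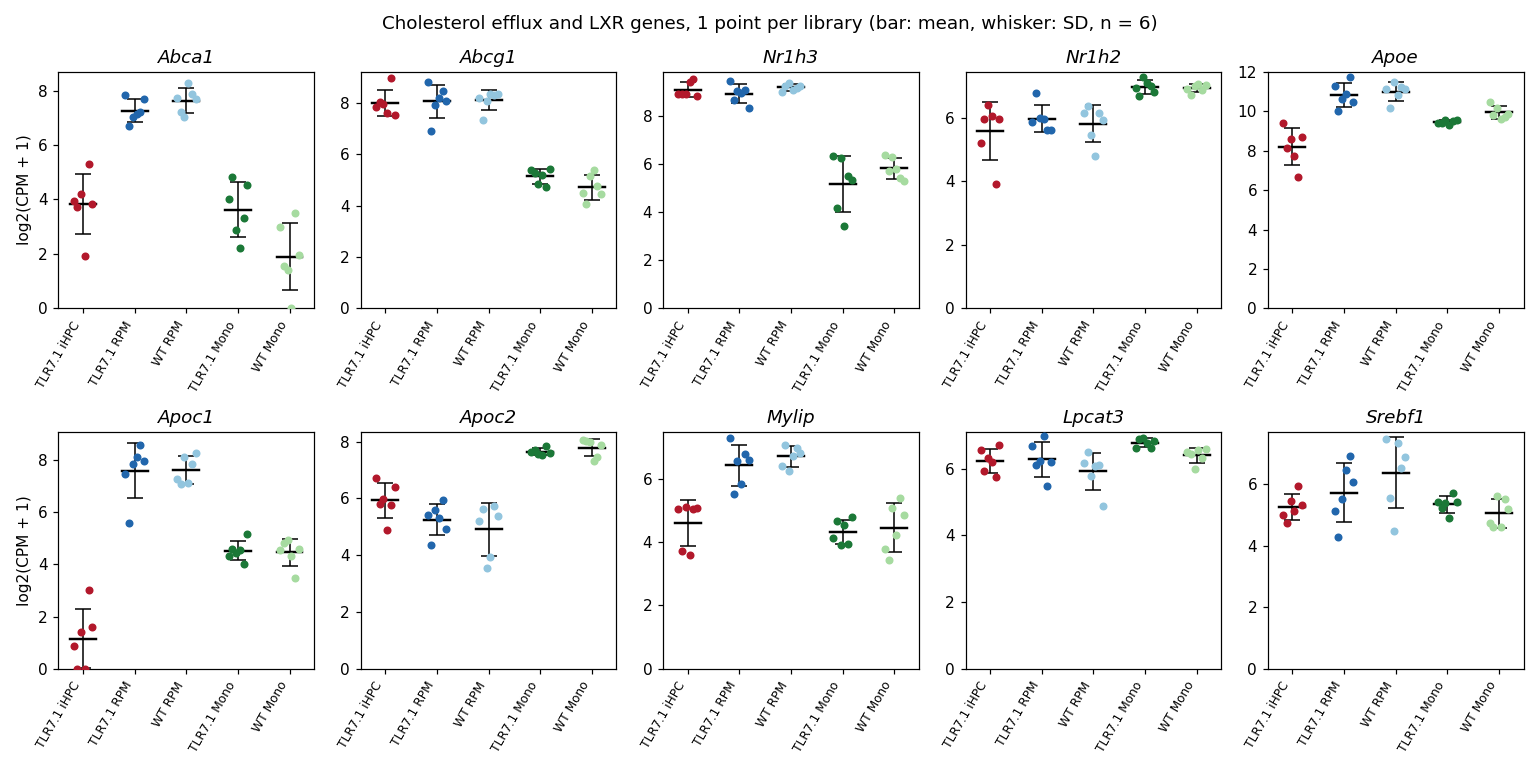
Level of each gene in each library as log2(CPM + 1), with iHPC, TLR7.1 RPM, WT RPM, TLR7.1 Mono and WT Mono from left to right; points are libraries, bars means and whiskers SD (n = 6). Abcg1 and Nr1h3 in iHPC overlap RPM and lie above Mono, Abca1 and Mylip in iHPC overlap Mono and lie under RPM, and Apoc1 in iHPC lies under all other groups.

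Of the 2 LXR genes, Nr1h3 encodes LXR alpha, the form enriched in liver and macrophages, and Nr1h2 encodes LXR beta, which most cells express. Nr1h3 ran from 457 to 732.5 CPM in iHPC with a median of 482, from 316 to 700.5 CPM in TLR7.1 RPM with a median of 508, and from 511 to 664 CPM in WT RPM with a median of 584. Its range was 9.59 to 80.0 CPM in TLR7.1 Mono and 38.7 to 81.2 CPM in WT Mono, so every macrophage or iHPC library stood above every Mono library. The log2 fold change of iHPC over TLR7.1 Mono was 3.64 ± 0.310 (SE, adjusted p = 1.77e-11), and that of iHPC over TLR7.1 RPM was 0.16 with a 95% interval of -0.40 to 0.72, not called. RPM exceeded Mono by 3.48 ± 0.309 in TLR7.1 mice (adjusted p = 3.18e-11) and by 3.34 ± 0.307 in WT mice (adjusted p = 6.65e-11).

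Nr1h2 went the other way. It averaged 53.9 ± 24.8 CPM in iHPC (SD, n = 6 here and below), 64.7 ± 23.2 in TLR7.1 RPM, 58.8 ± 20.4 in WT RPM, 126 ± 18.3 in TLR7.1 Mono and 122 ± 10.7 in WT Mono. All iHPC libraries, at 14.1 to 84.2 CPM, lay under all TLR7.1 Mono libraries, at 102 to 154.5 CPM (log2 -1.17 ± 0.261, adjusted p = 5.48e-04). RPM were lower than Mono in TLR7.1 mice (log2 -0.93 ± 0.263, adjusted p = 0.0042) and in WT mice (log2 -1.0 ± 0.271, adjusted p = 0.00281). With every library thinned to the smallest total, 95002 counts, all 3 of these differences kept their sign and none was called. The difference from Mono was then -0.57 for iHPC (adjusted p = 0.294), -0.93 for TLR7.1 RPM (adjusted p = 0.0828) and -0.65 for WT RPM (adjusted p = 0.232) on the log2 scale. Per kilobase of principal transcript, Nr1h3 exceeded Nr1h2 in 6 of 6 iHPC libraries with a median ratio of 9.27, in 6 of 6 TLR7.1 RPM libraries with 8.34 and in 6 of 6 WT RPM libraries with 9.32. In Mono it exceeded Nr1h2 in 0 of 6 TLR7.1 and 0 of 6 WT libraries, with median ratios of 0.353 and 0.457. Nr1h3 overlaps the annotated gene Gm13783 on the same strand, and reads at the overlap cannot be assigned.

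The 2 cholesterol exporters parted in iHPC. Abca1 loads cholesterol onto lipid-poor apolipoproteins, and Abcg1 passes it on to lipid-carrying high-density lipoprotein particles. Abca1 ran from 2.78 to 38.7 CPM in iHPC with a median of 13.9, against 101.5 to 229 CPM in TLR7.1 RPM with a median of 143. No iHPC library reached the TLR7.1 RPM range, and Abca1 was 10.8-fold lower in iHPC (log2 -3.43 ± 0.478, adjusted p = 9.62e-07), in 6 of 6 mice and on all 3 collection days. The 95% interval of the fit, which holds the spread between libraries, was log2 -4.40 to -2.46. The iHPC libraries held 83 counts of Abca1 in all. Against TLR7.1 Mono, at 3.60 to 27.1 CPM, iHPC did not differ by the test (log2 0.05, 95% interval -0.94 to 1.05), and the estimate is too wide to show that the levels are alike.

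Abcg1, by contrast, ran from 182.5 to 500.1 CPM in iHPC with a median of 240, from 119 to 445 CPM in TLR7.1 RPM with a median of 280.4 and from 161 to 329.5 CPM in WT RPM with a median of 307. The iHPC and RPM ranges overlapped, and the difference between iHPC and TLR7.1 RPM was -0.09 on the log2 scale with a 95% interval of -0.61 to 0.43. In TLR7.1 Mono it ran from 25.2 to 42.4 CPM, under every iHPC library (log2 fold change of iHPC over Mono 2.92 ± 0.276, adjusted p = 1.95e-10). RPM exceeded Mono in both genotypes, for Abcg1 by 3.01 ± 0.277 in TLR7.1 mice (adjusted p = 7.33e-11) and 3.40 ± 0.286 in WT mice (adjusted p = 8.65e-12). For Abca1 the RPM excess was 3.49 ± 0.458 in TLR7.1 mice (adjusted p = 1.34e-07) and 5.73 ± 0.531 in WT mice (adjusted p = 8.08e-11), where WT Mono held 34 counts in all and 1 library was at 0. Per kilobase, Abcg1 exceeded Abca1 in all 30 libraries. The median ratio was 26.9 in iHPC, with a range of 22.7 to 125, against 3.38 in TLR7.1 RPM, with a range of 2.07 to 4.19, and 2.44 in WT RPM. The iHPC and TLR7.1 RPM ratios did not overlap, as the Abca1 levels did not.

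**Figure D2:**
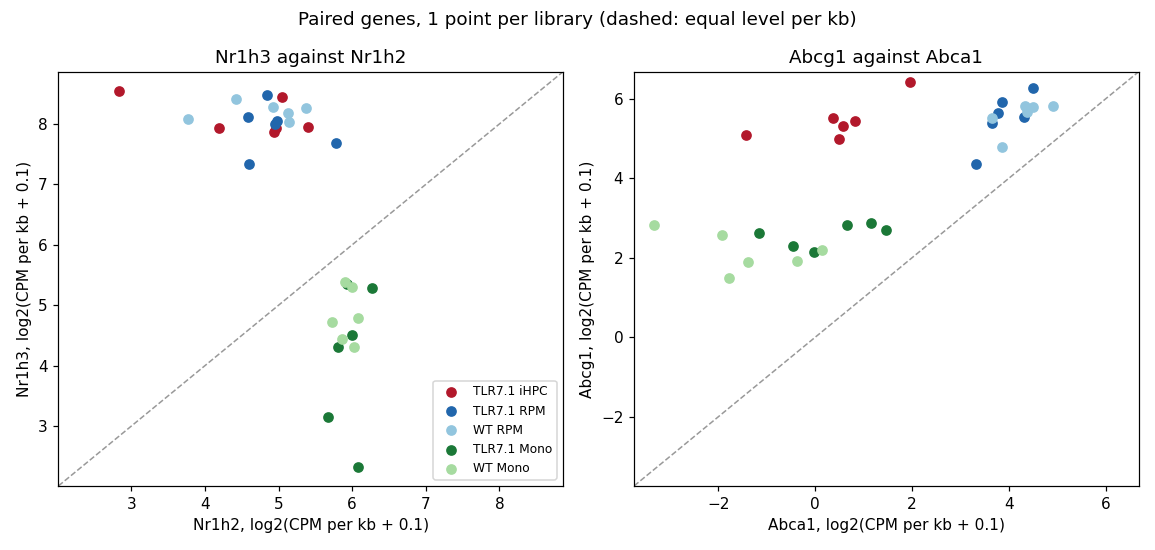
Levels per kilobase of principal transcript, as log2(CPM per kb + 0.1), of Nr1h3 against Nr1h2 (left) and of Abcg1 against Abca1 (right), 1 point per library coloured by group; the dashed line marks equal levels. The macrophage and iHPC libraries lie above the line and the Mono libraries under it for Nr1h3, and the 6 iHPC libraries stand left of all RPM libraries for Abca1, with Abcg1 levels that overlap.

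The 3 apolipoprotein genes, neighbours in 1 cluster of the genome, did not move together. Apoe encodes the cholesterol acceptor that macrophages secrete, Apoc1 a small apolipoprotein and Apoc2 the cofactor of lipoprotein lipase. Apoe ran from 102 to 671 CPM in iHPC with a median of 335.5, against 1031 to 3449 CPM in TLR7.1 RPM with a median of 1740. All iHPC libraries lay under all TLR7.1 RPM libraries, and Apoe was 5.62-fold lower (log2 -2.49 ± 0.290, adjusted p = 4.41e-08), in 6 of 6 mice. The difference by collection day was -1.90 on day 13, -1.89 on day 21 and -4.10 on day 26, on the log2 scale, and day 26 holds the iHPC library with the lowest Apoe level, 29 counts. TLR7.1 Mono held 624 to 757 CPM, and iHPC were lower than those in 6 of 6 mice, with ranges that overlapped (log2 -1.0 ± 0.278, adjusted p = 0.00456). In the mouse whose iHPC and RPM totals lay closest, 24380 with 292507 and 268275 counts, Apoe was 102 CPM in iHPC and 3449 CPM in RPM. That was the largest difference of the 6 mice (log2 -5.06), and without this mouse the fitted difference was -2.08. In mouse 24308, with 1156079 counts in iHPC and 917819 in RPM, Apoe was 391.5 and 1589 CPM (log2 -2.02). RPM exceeded Mono by 1.49 ± 0.279 in TLR7.1 mice (adjusted p = 4.98e-05) and by 1.07 ± 0.277 in WT mice (adjusted p = 0.0019). That excess was smallest in the deepest RPM library of each genotype. Mouse 24117, with 1511480 counts in RPM and 1561253 in Mono, had 1137 CPM of Apoe in RPM and 912 CPM in Mono, a log2 difference of 0.32, and mouse 24107, with 1257240 counts in RPM and 1658294 in Mono, had 1031 CPM in RPM and 678 CPM in Mono, a log2 difference of 0.60. The RPM libraries of 268275 and 95002 counts had 3449 and 2848 CPM, the highest of their groups. Apoe held up to 1.26 reads per transcript base, or 76.4% of the density of the densest gene of its library, a density that levelled off in deep libraries. The part of depth in the Apoe differences between RPM and Mono and between iHPC and RPM was not tested.

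Apoc1 was nearly absent from iHPC. It held 8 counts in the 6 iHPC libraries together, with 2 libraries at 0, and ran from 0 to 7.04 CPM, against 47.3 to 383 CPM in TLR7.1 RPM with a median of 239. Every TLR7.1 RPM library stood above every iHPC library, and the pooled ratio of RPM over iHPC was 149.4 with a 95% counting interval of 75.5 to 347. The fitted log2 fold change of iHPC over RPM was -7.30 ± 0.527 (adjusted p = 9.69e-13). The counting interval is taken on counts pooled over mice, so it covers counting error only and leaves out the spread between mice. The reads also carry no molecular identifiers. In these bulk libraries fewer cells of a type and less RNA per cell cannot be told apart. Against TLR7.1 RPM, 6 of 8 RPM markers and 2 of 2 tested marginal zone macrophage markers were also called lower in iHPC. The part of such cells in the Apoc1 level was not tested. Against TLR7.1 Mono, at 15.3 to 34.5 CPM, Apoc1 was lower in iHPC too (log2 -4.00 ± 0.554, adjusted p = 4.98e-07), again without overlap. RPM exceeded Mono by 3.30 ± 0.365 in TLR7.1 mice and by 3.20 ± 0.369 in WT mice (adjusted p = 4.26e-09 and 1.01e-08).

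Apoc2 was highest in Mono. It averaged 64.5 ± 26.3 CPM in iHPC, 39.3 ± 14.2 in TLR7.1 RPM, 33.6 ± 17.3 in WT RPM, 200.2 ± 15.7 in TLR7.1 Mono and 225 ± 45.8 in WT Mono. Both macrophage comparisons with Mono were called as lower, by log2 -2.42 ± 0.281 in TLR7.1 mice (adjusted p = 1.22e-08) and -2.61 ± 0.289 in WT mice (adjusted p = 4.19e-09), and iHPC were lower than TLR7.1 Mono by log2 -1.61 ± 0.262 (adjusted p = 7.02e-06), each without overlap. iHPC were higher than TLR7.1 RPM by log2 0.80 ± 0.284 (adjusted p = 0.0327), with overlapping ranges, in 4 of 6 mice and not on day 26. With mouse as a replicate block this difference was 0.75 and was not called (adjusted p = 0.0546), nor was it without mouse 24068, 24107 or 24304 in turn, in a fit of these 12 libraries alone or in thinned counts. Apoc2 overlaps the annotated gene Gm44805, and reads of both cannot be told apart.

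Of the 3 remaining targets, Mylip encodes the ligase that marks the low-density lipoprotein receptor for degradation, and it followed Abca1. It ran from 11.1 to 33.5 CPM in iHPC with a median of 31.9, against 44.2 to 154 CPM in TLR7.1 RPM with a median of 93.8, without overlap (log2 -1.82 ± 0.351, adjusted p = 1.45e-04). RPM stood above Mono in every library pair of a mouse, by 2.19 ± 0.348 in TLR7.1 mice (adjusted p = 3.84e-06) and by 2.18 ± 0.347 in WT mice (adjusted p = 3.95e-06), while iHPC and TLR7.1 Mono did not differ by the test (log2 0.37, 95% interval -0.34 to 1.08). Lpcat3, the enzyme that puts polyunsaturated fatty acids into phospholipids, was between 62.9 ± 20.5 CPM in WT RPM and 109 ± 9.69 CPM in TLR7.1 Mono and was not called in any of the 4 population comparisons (edgeR adjusted p 0.0795 to 0.866). Its difference between iHPC and TLR7.1 Mono was log2 -0.49 ± 0.224, which DESeq2 (adjusted p = 0.0297) and edgeR on these 12 libraries alone (adjusted p = 0.0363) called. DESeq2 also called the difference between TLR7.1 RPM and TLR7.1 Mono (adjusted p = 0.0452).

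Srebf1, which encodes the transcription factor SREBP1 of fatty acid synthesis, ran from 21.4 to 175.5 CPM in WT RPM, against 23.2 to 48.5 CPM in WT Mono (log2 1.66 ± 0.369, adjusted p = 3.63e-04). The ranges overlapped, and 5 of 6 WT mice had more Srebf1 in RPM. The exception was the only WT mouse of day 21, whose RPM library of 95002 counts held 2 counts of Srebf1, and without libraries under 300000 counts the difference was 1.78. Srebf1 averaged 38.8 ± 12.0 CPM in the iHPC libraries, while TLR7.1 RPM averaged 61.6 ± 37.2 and TLR7.1 Mono 40.1 ± 7.42 CPM, and neither difference was called (log2 -0.65, 95% interval -1.42 to 0.11, and log2 -0.08, 95% interval -0.82 to 0.66). The transcripts of Srebf1 share exons, so the counts do not separate its isoforms. Srebf1 overlaps Rai1 and Lpcat3 overlaps Emg1 on the opposite strand, and as no strand setting is known the reads of these pairs cannot be told apart.

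**Figure D3:**
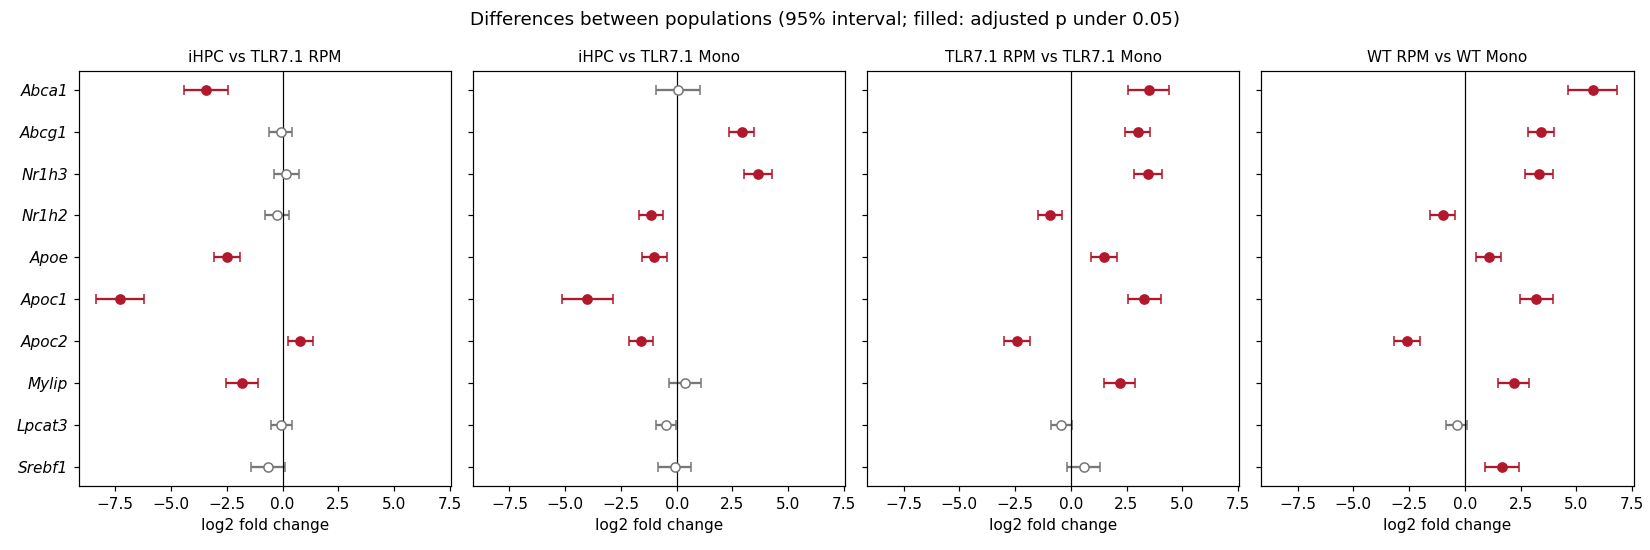
Log2 fold change of each gene with its 95% interval in 4 comparisons of populations, the group named first over the other; filled points were called at an adjusted p under 0.05. Abca1, Apoe, Apoc1 and Mylip lie left of 0 in iHPC against TLR7.1 RPM, and Abcg1 and Nr1h3 lie at 0 there and right of 0 against TLR7.1 Mono.

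Genotype changed none of the 10 genes past the threshold. In Mono, 0 genes were called beside 2.1% of all genes, and in RPM 0 beside 8.25%. At an unadjusted p under 0.05 there was 1 gene in each, Abca1 in Mono and Srebf1 in RPM. DESeq2 called 1 in Mono and 0 in RPM, beside 325 and 1271 of all genes. The share of all genes at an unadjusted p under 0.05 was not taken, so counts at that limit, here and below, have no such share beside them. Abca1 ran from 3.60 to 27.1 CPM in TLR7.1 Mono with a median of 12.1, against 0 to 10.3 CPM in WT Mono with a median of 2.45. The ranges overlapped, and the log2 fold change was 1.83 ± 0.525 (adjusted p = 0.0594), on 130 counts in TLR7.1 Mono and 34 in WT Mono. DESeq2 called it (adjusted p = 0.00926), as did the test without mouse 24261 (0.022) or mouse 24415 (0.017), and over all its alternatives the adjusted p ran from 0.00926 to 1.0. Apoe was 624 to 757 CPM in TLR7.1 Mono and 775 to 1427 CPM in WT Mono, groups that did not overlap (log2 -0.52 ± 0.274, adjusted p = 0.749). A fit of these 12 libraries alone called Apoe (adjusted p = 0.0142). Lpcat3 was 97.8 to 121 CPM in TLR7.1 Mono and 62.7 to 96.1 CPM in WT Mono, again without overlap (log2 0.37 ± 0.221, adjusted p = 0.87). The other 7 genes had log2 fold changes between -0.37 and 0.39.

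In RPM, Srebf1 averaged 61.6 ± 37.2 CPM in TLR7.1 mice and 102 ± 61.6 CPM in WT mice (log2 -0.84 ± 0.371, adjusted p = 0.166). Without libraries under 300000 counts it was -1.18 and called (adjusted p = 0.0279). The other 9 genes lay between -0.41 and 0.32 on the log2 scale. For the difference of the genotype effects, that in RPM minus that in Mono, 0 genes were called beside 0.689% of all genes. At an unadjusted p under 0.05 there were 2, and DESeq2 called 1, beside 209 of all genes. There, Abca1 had the lowest adjusted p (log2 -2.24 ± 0.666, adjusted p = 0.109), and DESeq2 called it (adjusted p = 0.0347).

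**Figure D4:**
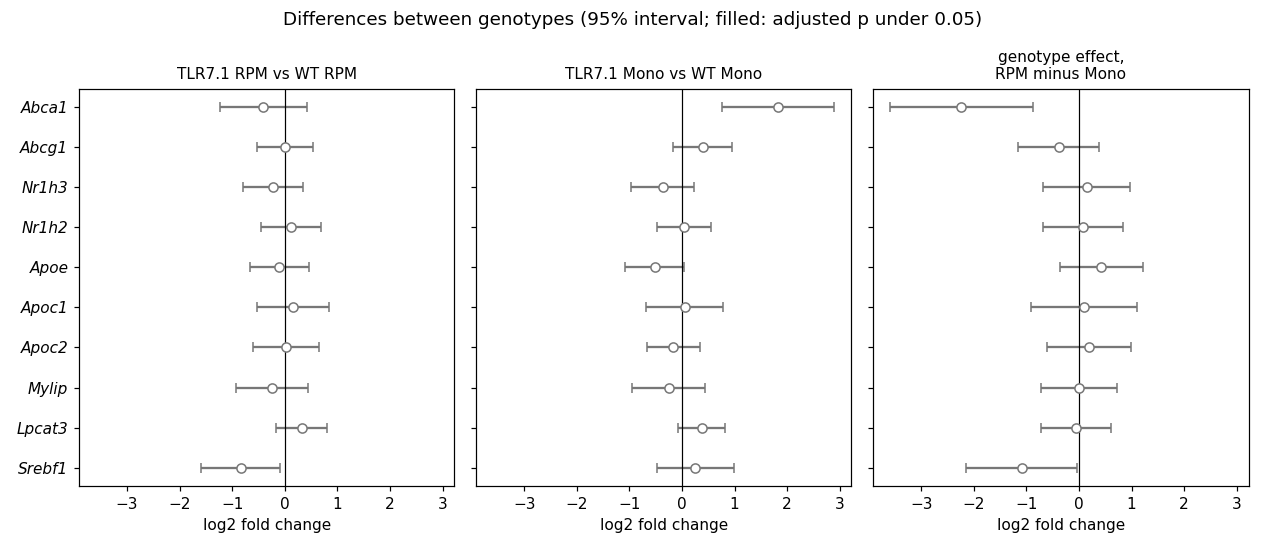
Log2 fold change of TLR7.1 over WT for each gene with its 95% interval in RPM (left) and Mono (middle), and the difference between those effects (right). All points are open, since no adjusted p was under 0.05; Abca1 in Mono, at 1.83, has the largest difference between the genotypes.

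Beyond these 10 genes, 36 of 50 listed genes of the pathway passed the filter. In iHPC against TLR7.1 RPM, 6 were higher and 6 lower, or 33.3% called beside 27.1% of all genes, and against TLR7.1 Mono 8 were higher and 11 lower, or 52.8% beside 38.7%. TLR7.1 RPM against TLR7.1 Mono gave 9 higher and 13 lower, or 61.1% beside 46.6%, and WT RPM against WT Mono 11 higher and 10 lower, or 58.3% beside 46.2%. Rxra, which encodes a partner receptor of LXR, averaged 17.8 ± 9.35 CPM in iHPC, against 135.5 ± 53.8 in TLR7.1 RPM (log2 -2.98 ± 0.345, adjusted p = 3.08e-08). In TLR7.1 Mono Rxra averaged 28.5 ± 8.35 CPM. Rxrb, the gene of another retinoid X receptor, averaged 29.5 ± 12.45 CPM in iHPC and 32.3 ± 16.6 in TLR7.1 RPM. That difference was not called (log2 -0.03, 95% interval -0.74 to 0.68). Mertk, an LXR target that encodes a receptor for dying cells, averaged 34.7 ± 7.94 CPM in iHPC, against 494 ± 178 in TLR7.1 RPM (log2 -3.83 ± 0.337, adjusted p = 9.23e-11) and 4.91 ± 3.94 in TLR7.1 Mono (log2 2.70 ± 0.402, adjusted p = 1.79e-06). Cd5l, an LXR-regulated survival factor, averaged 347 ± 146 CPM in iHPC, against 1462 ± 383 in TLR7.1 RPM (log2 -2.09 ± 0.285, adjusted p = 6.6e-07), and held 8 counts in all of TLR7.1 Mono. Pltp, which encodes the phospholipid transfer protein, averaged 356 ± 171 CPM in iHPC and 61.5 ± 44.9 CPM in TLR7.1 RPM (log2 2.46 ± 0.483, adjusted p = 2.17e-04). Pltp varied from 35.2 to 475.5 CPM among the iHPC libraries. Of 6 further reported LXR targets of macrophages, 2 were called lower in iHPC than in TLR7.1 RPM, Mertk and Cd5l, and 1 higher, Smpdl3a. Smpdl3a averaged 495 ± 77.7 CPM in iHPC, against 227 ± 52.0 in TLR7.1 RPM (log2 1.11 ± 0.151, adjusted p = 6.6e-07). In TLR7.1 Mono Smpdl3a averaged 865 ± 90.8 CPM. Of 6 lipogenic targets tested, 2 were called higher in iHPC than in TLR7.1 RPM and 0 lower.

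Of oxysterol metabolism, 2 genes were tested, and both were called lower than in TLR7.1 Mono in iHPC and also in TLR7.1 RPM. Cyp27a1, which makes 27-hydroxycholesterol, an LXR ligand, averaged 48.9 ± 16.1 CPM in iHPC, against 235 ± 56.1 in TLR7.1 Mono (log2 -2.26 ± 0.294, adjusted p = 1.69e-07). In TLR7.1 RPM Cyp27a1 averaged 48.4 ± 25.7 CPM, and iHPC were not called against RPM (log2 0.03, 95% interval -0.60 to 0.66). Tgm2, a transglutaminase gene that LXR and retinoid receptors induce in macrophages, averaged 177 ± 27.0 CPM in iHPC and 11.2 ± 5.72 CPM in TLR7.1 Mono (log2 3.98 ± 0.324, adjusted p = 5.87e-12). In TLR7.1 RPM Tgm2 averaged 247 ± 54.6 CPM, and iHPC were not called against RPM (log2 -0.46, 95% interval -1.02 to 0.09). Between genotypes, edgeR called 0 of the 36 genes in Mono, where 4 had an unadjusted p under 0.05, and in RPM 1 was higher in TLR7.1 mice (Abca7) and 4 were lower (Lpl, Scarb1, Ncoa3 and Ncor1), or 13.9% called beside 8.25% of all genes. In the same comparison 1 of 3 plasma cell markers, 3 of 8 erythroid and 2 of 4 platelet markers were called higher in TLR7.1 RPM. Of 8 RPM markers 3 were called lower and 0 higher. Of Pecam1, Itgam, Ptprc and Cx3cr1, listed as iHPC gate genes, 1 was called lower. The T and NK cell sum ran from 4.12 to 799 CPM in TLR7.1 RPM and from 0 to 115 CPM in WT RPM. Of the 2 T and NK cell markers tested, 0 were called. The plasma cell sum ran from 279 to 2330 CPM in TLR7.1 RPM, with a median of 2136, and from 128.5 to 1357 CPM in WT RPM, with a median of 242, and the part of these cells in the genotype differences was not tested. Lpl, the lipoprotein lipase gene, averaged 220 ± 56.1 CPM in TLR7.1 RPM and 519 ± 145 CPM in WT RPM (log2 -1.24 ± 0.268, adjusted p = 0.00327). Abca7, a lipid transporter gene, was 42.3 ± 31.9 CPM in TLR7.1 RPM and 15.8 ± 10.1 CPM in WT RPM (log2 1.59 ± 0.427, adjusted p = 0.0173). Ncor1 and Ncoa3 encode a corepressor and a coactivator of nuclear receptors, and their log2 fold changes were -0.68 ± 0.143 and -0.76 ± 0.248 (adjusted p = 0.0026 and 0.0493). Scarb1, the receptor gene for high-density lipoprotein, averaged 77.4 ± 16.3 CPM in TLR7.1 RPM and 143 ± 45.6 CPM in WT RPM (log2 -0.90 ± 0.197, adjusted p = 0.00388). Calls of these further pathway genes are from the main fit only, and they were not followed under the alternatives.

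**Figure D5:**
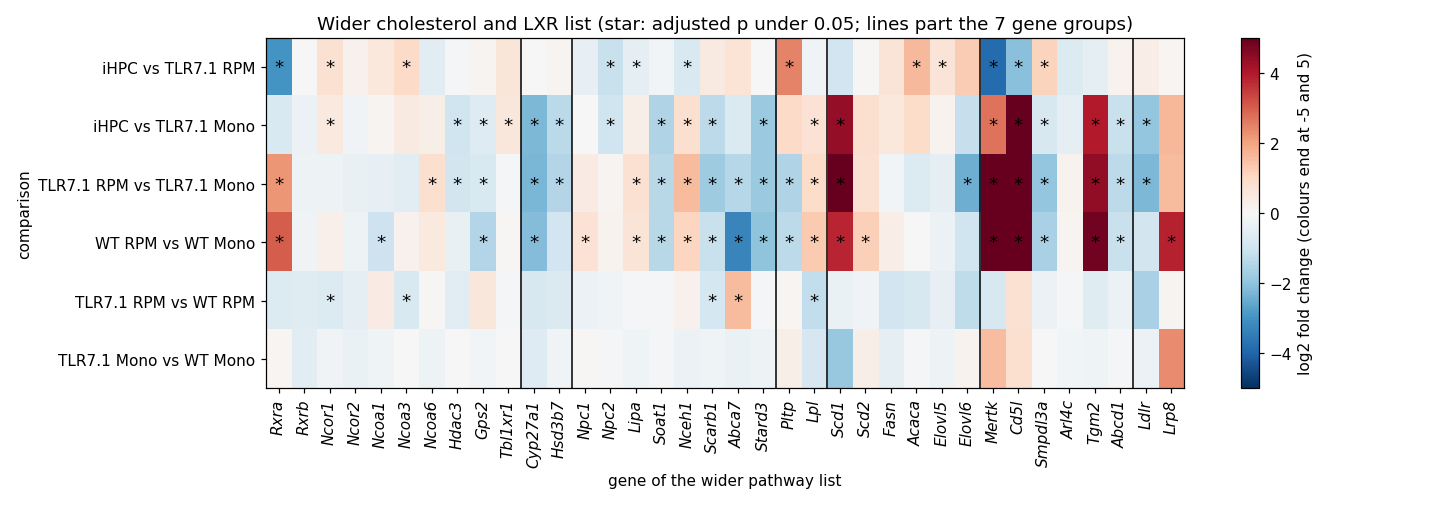
Log2 fold change of the 36 further pathway genes tested (columns) in 6 comparisons (rows), with colours that end at -5 and 5, stars for an adjusted p under 0.05 and lines between the 7 gene groups. Rxra and Mertk are lower in iHPC than in TLR7.1 RPM and Pltp is higher.

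Across the 30 libraries, the levels of some members ran together. Taken on log2(CPM + 1), Pearson's r was 0.909 between Abcg1 and Nr1h3, 0.867 between Abca1 and Mylip and 0.859 between Apoe and Apoc1, while it was 0.144 between Abcg1 and Apoe. These are descriptions over 30 libraries that fall into 5 groups, share mice and differ in depth. Among 8933 genes, the 3 most like Abca1 were Kcnj10 (r = 0.931), Fcna (0.918) and Slc12a7 (0.913), the 3 most like Apoe were Hpgd (0.942), Ifi27l2a (0.936) and Selenop (0.917), and the 3 most like Nr1h3 were Vamp5 (0.953), Itgad (0.951) and Itga9 (0.951). Kcnj10, a potassium channel gene, averaged 3.90 CPM in iHPC, against 350.4 CPM in TLR7.1 RPM and 393 CPM in WT RPM. Vamp5, a vesicle fusion gene, averaged 376 CPM in iHPC, against 424.5 CPM in TLR7.1 RPM and 453 CPM in WT RPM.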

How the data were processed

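The authors' deposited table holds raw read counts per Ensembl gene for 30 libraries. Per the labels' protocols, each came from 500 sorted cells, with SMART-Seq v4 cDNA and Nextera XT libraries. Per the submitters' processing notes, the tools were HTSeq 0.4.1, TopHat, Bowtie, SAMtools, Picard, CASAVA 1.8.2 and FastQC, on NCBIM37; the role of each, the annotation and the strand setting were not given in the sources used here. Symbols were matched for 32919 of 37991 identifiers, which hold 99.11% of counts; 0 columns were left unmapped. Genes were kept by edgeR's filterByExpr (11030), scaled by TMM and tested with a robust quasi-likelihood model of 1 mean per group over all 30 libraries (R 4.3.3 with edgeR 4.0.16 and limma 3.58.1), two-sided, Benjamini-Hochberg adjusted. CPM used TMM library sizes, and levels per kilobase the principal transcript of GENCODE M21. The code was tested on simulated data.

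Alternatives were DESeq2 1.42.0, its size factors, no filter, only the groups compared, collection date, mouse as a replicate block, counts thinned to 95002, no library under 300000 counts, and each mouse left out. Libraries of 1 number come from 1 mouse, per the labels; residual correlations within mice ran from -0.08 to 0.196, over 0.1 in 2 of 24 pairs. Replicates were separate mice.

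The 10 genes and the wider list were chosen with earlier results of these data known. All 10 are named; from the wider list up to 4 called genes per comparison with the largest change and at least 20 CPM in the higher group. Of the latter, the text gives those of the iHPC and genotype comparisons, and Ncor1, Rxrb and Smpdl3a were named after their values were seen. RefSeq promoter windows are on GRCm38.p6, not the files' build.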

Additional observations from a re-analysis of the deposited data

Results flagged for a closer look

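Among 50 groups of 6 libraries, 4 values stood apart from the rest of their group by Dixon's test at the 95% level, which flags about 1 group in 20 by chance. Abcg1 was 500.1 CPM in the iHPC library of mouse 24380, of 292507 counts, against 182.5 to 264 CPM in the other 5 iHPC libraries. Apoc1 was 7.043 CPM in the same library, which is 2 counts, against 0 to 2.013 CPM in the others. Abcg1 was 160.8 CPM in the WT RPM library of mouse 24117, against 267.6 to 329.5 CPM in the others. Nr1h2 was 110.1 CPM in the TLR7.1 RPM library of mouse 24107, against 47.8 to 62.9 CPM in the others.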

How the results depend on the processing

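Of 46 log2 fold changes followed under the alternatives, 28 were called, and 0 of these changed sign in any alternative run; 4 lost their call in at least 1 (Apoc2 in iHPC against TLR7.1 RPM, and Nr1h2 in the 3 population comparisons that called it, when thinned). Of 910 alternative values, 882 kept direction and side of the threshold. With mouse as a replicate block, Apoc2 in iHPC against TLR7.1 RPM was 0.75 (adjusted p = 0.0546); the block changed no other call followed here and cannot be used between genotypes. Values not called that changed sign were, in thinned counts, Nr1h2 (0.36) and Lpcat3 (0.51) in iHPC against TLR7.1 RPM, Abca1 in iHPC against TLR7.1 Mono (-0.41) and Lpcat3 in WT RPM against WT Mono (0.27), and Abca1 in iHPC against TLR7.1 Mono without libraries under 300000 counts (-0.16). With each mouse left out, Abcg1 ran from -0.26 to 0.12 and Lpcat3 from -0.20 to 0.13 in iHPC against TLR7.1 RPM, and Abca1 from -0.25 to 0.40 in iHPC against TLR7.1 Mono. Members called moved to 1 with DESeq2 in Mono between genotypes and in the difference of genotype effects, to 1 in Mono with only the groups compared, and to 1 in RPM without libraries under 300000 counts; leaving out mice gave 0 to 1 in Mono. All genes called moved to 209 in the difference of genotype effects with DESeq2. With only the groups compared they were 1753 in iHPC against TLR7.1 RPM, 737 in Mono between genotypes and 160 in RPM between genotypes. In thinned counts they were 1121, 1730, 2086 and 2209 in the 4 population comparisons, 48 in Mono and 270 in RPM between genotypes, and 13 in the difference. Leaving out mice gave 584 (without 24214) to 1354 in RPM between genotypes and 29 (without 24415) to 145 (without 24117) in the difference. Fewer counts or fewer samples are by construction what the thinned fit and the fits of only the groups compared have; the cause of the other changes was not tested.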
